A study of Drosophila melanogaster with 2 samples.

Results

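The 9 genes described here set up the body axis of the Drosophila embryo: the maternal genes bcd, nos and cad, and the gap genes hb, Kr, kni, gt, tll and hkb. They were taken as a list of named genes, 9 of the 13945 protein-coding genes annotated on the main chromosome arms, and for each the window examined was the gene body plus 10 kb on either side. The data are from 1 group, transgenic flies carrying CG12236 with enhanced green fluorescent protein (eGFP) fused to its C-terminus, in which CG12236 is a BTB zinc finger protein. Chromatin from whole embryos of mixed sex, 0 to 24 h old, was immunoprecipitated with an antibody to GFP in 2 biological replicates, numbered 1 and 3. No untagged or untreated group was analysed here, so there is no comparison of conditions, and everything below is a description. A whole embryo of this age range mixes all tissues and stages, so a region cannot be assigned to the cells or hours in which a patterning gene is active.

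The anterior-posterior axis starts from RNAs that the mother places in the egg. The bcd RNA sits at the anterior pole and encodes a homeodomain activator, the nos RNA at the posterior pole encodes a repressor of hb translation, and cad encodes a homeodomain protein that forms a posterior gradient because Bcd blocks its translation. These gradients switch on the gap genes in broad bands in the syncytial blastoderm: hb, Kr, kni and gt encode transcription factors of the trunk and head bands, and tll and hkb respond to the terminal Torso signal at the poles. Both hb and cad are transcribed by the mother and again by the zygote. Here cad is counted with the maternal and hb with the gap genes.

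The lists on the dm6 assembly were read. Each replicate had 30000 regions, 30000 more came from the replicates pooled, and 2426 passed the authors' optimal irreproducible discovery rate (IDR) step, which are called IDR peaks below. The IDR peaks were the 2426 strongest pooled regions. Signal is the authors' own value for each region and ran from 16.9 to 1067 in the pooled list and from 70.5 upwards among IDR peaks. Its scale differs between lists, so ranks are given beside it. No read totals were used, so the depth behind the lists is unknown.

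All 3 maternal genes had an IDR peak in their windows and none of the 6 gap genes did. Together that was 3 of 9, against 43.5% of all protein-coding genes, so as a list the 9 genes held IDR peaks no more often than genes in general. The 5 peaks concerned were 2 in the window of bcd, 2 in that of nos and 1 in that of cad. A single one of them lay within 500 bp of the start site of the listed gene, at bcd, and 1 of 9 compares with 10.2% of all genes. Of the remaining 4, 1 was inside an intron of cad and 3 lay at the promoters of neighbouring genes. Restricting the count to summits in the gene's own body or within 500 bp of its own start, a restriction chosen after the data were seen, left 2 of the 9 genes, both maternal, against 13.9% of all genes.

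The summit sequences that carry these results are shown first, as 151 bases centred on the summit and read in the direction of the listed gene from the RefSeq Release 6 genome. Capitals mark matches, on either strand, to 6 short motifs named below. The first sequence is the bcd promoter peak on the reverse strand, chr3R:6759578-6759728.
bcd promoter, IDR peak: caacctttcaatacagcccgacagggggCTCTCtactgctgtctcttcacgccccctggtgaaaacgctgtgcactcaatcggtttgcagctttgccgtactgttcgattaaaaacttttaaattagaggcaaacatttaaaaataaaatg
The next pair are the IDR peaks in the nos window, on the forward strand at chr3R:19147965-19148115 and chr3R:19162305-19162455, both at promoters of other genes. The IDR peak of the bcd window that lies at a neighbour's promoter is not printed, because its sequence touches an annotated untranslated region.
nos upstream neighbour, IDR peak: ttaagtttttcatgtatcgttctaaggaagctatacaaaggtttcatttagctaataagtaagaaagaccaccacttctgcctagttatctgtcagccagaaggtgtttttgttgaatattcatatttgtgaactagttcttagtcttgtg
nos downstream neighbour, IDR peak: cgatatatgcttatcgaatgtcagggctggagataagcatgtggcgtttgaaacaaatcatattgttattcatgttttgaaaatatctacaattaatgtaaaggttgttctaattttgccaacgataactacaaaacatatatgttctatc
The cad sequences, on the forward strand, are the promoter region that fell below the IDR step, chr2L:20770495-20770645, and the intronic IDR peak, chr2L:20780855-20781005.
cad promoter, pooled region: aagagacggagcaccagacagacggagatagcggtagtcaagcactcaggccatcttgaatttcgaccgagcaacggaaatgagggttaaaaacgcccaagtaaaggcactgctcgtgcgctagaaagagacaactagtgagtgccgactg
cad intron, IDR peak: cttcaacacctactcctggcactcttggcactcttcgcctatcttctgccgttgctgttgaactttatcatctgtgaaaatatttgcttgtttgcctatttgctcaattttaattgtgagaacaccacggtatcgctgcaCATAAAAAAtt
For comparison, the strongest pooled region at a start of hb, on the reverse strand at chr3R:8698196-8698346, is the gap gene example. The region at the start of hkb could also have been printed and is left out.
hb upstream start, pooled region: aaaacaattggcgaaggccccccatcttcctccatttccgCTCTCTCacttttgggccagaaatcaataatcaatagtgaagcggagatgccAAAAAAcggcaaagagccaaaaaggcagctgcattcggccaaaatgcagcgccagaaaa

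The motifs searched were CAGGTA for the genome activator Zelda, TAATCC for Bicoid, TTTATG for Caudal, TTTTTT for Hunchback, GAGAG for the GAGA factor and TATCGATA for DREF. In the bcd promoter window the single match was to GAGAG. The cad intron window held 1 match to TTTATG and 1 to TTTTTT, which share bases. The hb window held 2 overlapping matches to GAGAG and 1 to TTTTTT, while the cad promoter window and both nos windows held none of the 6. The hkb window, which is not printed, also held none. Among all 2426 IDR peaks, 17.7% of windows of this length hold GAGAG, 17.8% TTTATG and 34.5% TTTTTT, so single matches of this kind are common. The share of G and C was 43.7% at the bcd promoter, 31.1% and 33.8% at the nos neighbours, 51.7% at the cad promoter and 40.4% in the cad intron, beside a median of 35.8% over IDR peaks and 42.4% over pooled regions. At the gap genes this share was 47.7% in the hb window and 70.2% in the hkb window.

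Of the maternal genes, bcd (FBgn0000166, chr3R:6755842-6759466, reverse strand) had the peak closest to its own start. The region at chr3R:6759441-6759864 had its summit 187 bp upstream of the start site, with a pooled signal of 136 and rank 729. Replicate 1 had a summit 16 bp away with a signal of 47.9 and rank 879, and replicate 3 one with a signal of 88.4 and rank 712. The ranks in both replicates were thus close to the pooled one. No other protein-coding start lay within 500 bp of it.

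The second IDR peak of the bcd window, at chr3R:6762639-6763062, lay 3385 bp upstream of bcd but 258 bp inside Ama, which encodes an immunoglobulin-domain adhesion protein. Its pooled signal was 108 at rank 1125, with a rank of 2050 in replicate 1 (signal 31.9) and 1125 in replicate 3 (signal 68.9). Regions ranked just below the IDR step stood close by. One at 1408 bp upstream of bcd had a signal of 65.3 and rank 2760, and one at the Ama promoter a signal of 63.3 and rank 2901. The replicates placed the latter far apart, at rank 1124 in replicate 1 and 19201 in replicate 3. In all, 15 pooled summits lay in the bcd window, and the 6 strongest were all upstream of its start. The homeobox gene zen, on the other side of bcd, had a pooled region 498 bp before its start at rank 17724, and no IDR peak fell on that side of the window.

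The window of nos (FBgn0002962, named nanos in the annotation, chr3R:19157238-19160202, forward strand) held the strongest peak of the set, but not at nos. The region at chr3R:19162326-19162433 was only 108 bp wide and had a pooled signal of 197 at rank 326. Replicate 1 gave it rank 446 (signal 64.2) and replicate 3 rank 298 (signal 131). It lay 2178 bp beyond the end of nos and 80 bp before the start of CG42359, with the start of Nsun5, an RNA methyltransferase family gene, also within 500 bp. The other IDR peak, at chr3R:19147828-19148251, was 9198 bp upstream of nos and 130 bp before the start of Ppcs, a gene of coenzyme A synthesis, with a signal of 98.0 and rank 1342. Its ranks were 1034 in replicate 1 (signal 44.5) and 1593 in replicate 3 (signal 56.9).

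At nos itself the pooled list had a summit 276 bp upstream of the start, with a signal of 24.2 and rank 16332. Its rank was 5418 in replicate 1 (signal 20.1) and 17541 in replicate 3 (signal 15.4). CG11779, on the opposite strand, overlaps nos, and its own start is 55 bp from this summit, so the region counts for both genes. Within the nos gene, 552 bp after its start, a further region ranked 8016, with a match in replicate 3 at rank 6296 and none in replicate 1. Both were far weaker in rank than the peaks at the neighbours' promoters.

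cad (FBgn0000251, chr2L:20770731-20783135, forward strand) had its IDR peak inside the gene. The region chr2L:20780718-20781141 lay in an intron, 10036 bp downstream of the nearer of the gene's 2 annotated starts, with a signal of 106 and rank 1172. Replicate 1 placed it at 918 (signal 47.1) and replicate 3 at 1477 (signal 59.3). The nearest protein-coding start was that of Pomp, a proteasome assembly factor gene, 6726 bp away, so this peak was not at any annotated promoter. The cad promoter itself had a pooled region 161 bp upstream of the first start, at chr2L:20770358-20770781, with a signal of 60.1. Its pooled rank of 3174 is below the 2426 of the IDR list, and so were its ranks of 2571 in replicate 1 (signal 28.7) and 4509 in replicate 3 (signal 30.9). In total 9 of the 18 pooled regions of this window lay in the body of cad or within 500 bp of its starts.

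**Figure D1:**
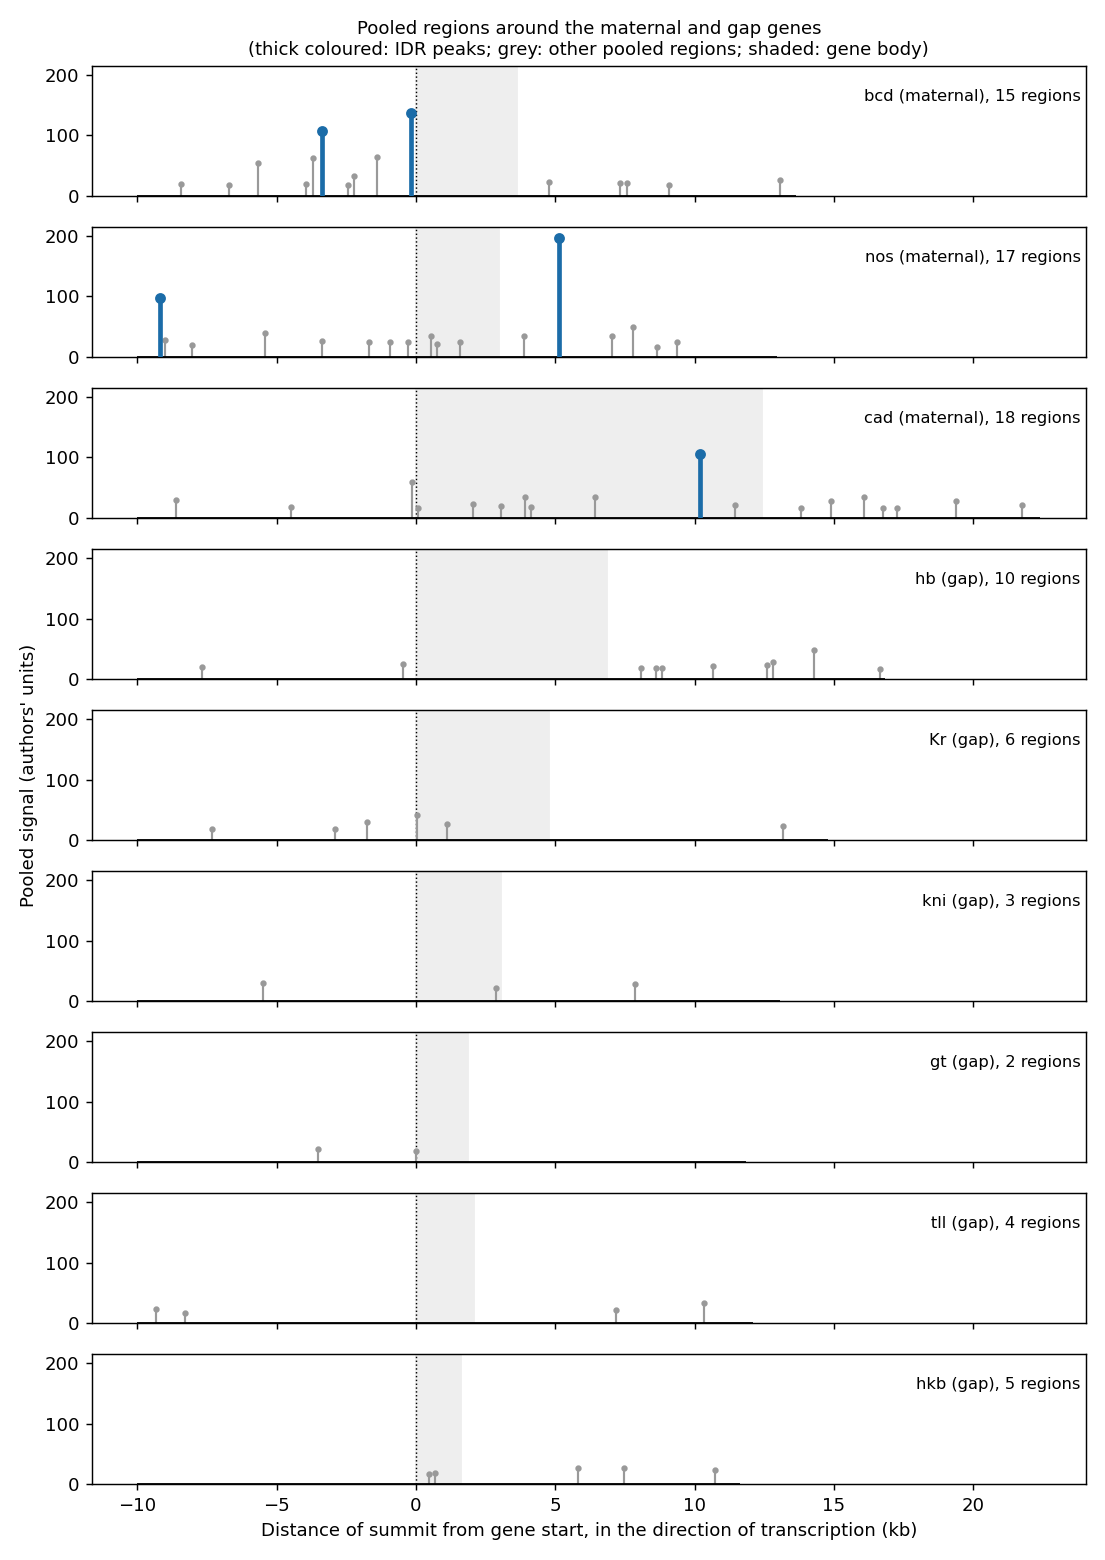
Pooled regions in the window of each gene, with the distance of the summit from the gene's outermost start in kb on the x axis and the authors' pooled signal on the y axis; thick blue lines with large dots are IDR peaks, grey lines other pooled regions, shading the gene body, and the black base line the window. The 5 IDR peaks, with signals of 98.0 to 197, lie in the windows of bcd, nos and cad, and the highest signal at a gap gene is 48.1, near hb.

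The strongest region of each gap window ranked below that of each maternal window. Over all genes with a pooled region in the window, the median best rank was 2702, with quartiles of 961 and 6535. The share of all genes with as good a best rank ran from 9.44% for nos to 26.5% for cad. Among gap genes it ran from 60.6% for hb to 87.9% for gt. The 6 gap windows held 30 pooled summits, 2 at gt to 10 at hb, and the best of them ranked 4690. By comparison the maternal windows held 15, 17 and 18, beside a median of 7 over all genes, with quartiles of 4 and 11. Windows differ in length, and that of cad is the longest of the 9, at 32.4 kb. At the highest −log10 q value of the pooled list, 3.82, stood 8 of the 50 maternal regions and 0 of the 30 gap regions, beside 3302 of all 30000 pooled regions. The median −log10 q was 0.471 in the maternal windows and 0.356 in the gap windows, both below the 0.517 of all pooled regions. A region among the 5000 strongest of the pooled list was found in the windows of the 3 maternal genes and of 1 gap gene, hb, which is 4 of 9 against 62.1% of all genes. All 9 windows held some pooled region, as did 92.2% of genes.

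hb (FBgn0001180, chr3R:8690980-8697822, reverse strand) encodes a zinc finger protein and has 2 annotated starts, an upstream one used for maternal and later zygotic RNA and a downstream one used for the early anterior band. Within 500 bp of the upstream start there was 1 pooled summit, 449 bp before it, with a signal of 25.5 and rank 14920. Replicate 3 had it at rank 22949 with a signal of 13.4, and replicate 1 had no summit within 500 bp. At the downstream start none of the 3 lists had a summit within 500 bp. The strongest region of the window, chr3R:8683337-8683760, with a signal of 48.1 and rank 4690, lay beyond the 3′ end of hb and 1627 bp from the start of CG44227. Its ranks were close in the replicates, 4391 in replicate 1 (signal 22.2) and 4861 in replicate 3 (signal 29.5).

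Kr (FBgn0001325, chr2R:25226611-25231394, forward strand), a zinc finger gene of the central band, had the strongest region at a start among the gap genes. Its summit was 42 bp after the start, with a pooled signal of 41.5 and rank 6082. Replicate 1 ranked it 2412, with a signal of 29.6, which is inside the 2426 strongest regions of that replicate, while the nearest summit to the start in replicate 3 was 315 bp downstream at rank 17652 (signal 15.4). The replicates thus differed on the Kr start, and none of the 6 pooled regions of its window was matched within 200 bp in both. Kr lies inside an intron of CG9380, which runs on the opposite strand.

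The other 4 gap genes had only low-ranked regions. kni (FBgn0001320, chr3L:20692330-20695378, reverse strand), a gene of the nuclear receptor family, had 3 pooled summits and none within 500 bp of its 2 starts. In replicate 1 a summit lay 135 bp after 1 start (rank 13777, signal 13.1). In replicate 3 a summit lay 237 bp before the other (rank 19607, signal 14.6). The strongest pooled summit was 5505 bp upstream, with a signal of 30.1 and rank 10941, matched in replicate 3 at rank 7190 but not in replicate 1. gt (FBgn0001150, chrX:2427113-2428967, reverse strand), which encodes a basic leucine zipper protein, had the fewest, with a region 7 bp before its start at rank 26004 (signal 18.5) and another 3513 bp upstream at rank 20102 (signal 21.6). The first was matched in replicate 3 alone, at rank 27995, and the second in replicate 1 alone, at rank 7260.

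The terminal gap genes were similar to these. tll (FBgn0003720, chr3R:30852315-30854400, forward strand), a nuclear receptor gene, had 4 pooled summits, all 7165 bp or more from its start and none in its body. In replicate 1 summits lay 695 and 903 bp after the start, in coding sequence, at ranks 15937 and 19130. Replicate 3 had one 2617 bp upstream at rank 19253. The strongest pooled summit was 10320 bp downstream of the start, with a signal of 34.1 and rank 8691. The replicates placed it far apart, at 4683 (signal 21.6) in replicate 1 and 20141 (signal 14.4) in replicate 3. hkb (FBgn0261434, chr3R:4345015-4346646, reverse strand), a zinc finger gene, had 5 pooled summits, of which the one 478 bp after its start ranked 29481 and had no match in either replicate. Its strongest region was 5812 bp downstream of the start, at rank 13983 (signal 26.4), with a match at rank 6135 in replicate 3 and none in replicate 1.

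At the start sites alone the maternal and gap genes were interleaved. A pooled summit lay within 500 bp of a start of 7 of the 9 genes, 3 of 3 maternal and 4 of 6 gap genes, against 51.8% of all genes. By pooled rank these were bcd at 729, cad at 3174, Kr at 6082, hb at 14920, nos at 16332, gt at 26004 and hkb at 29481. In this order nos stands below Kr and hb. Starts of other genes held 11 of the 50 summits in maternal windows and 2 of the 30 in gap windows. The nos summit shared with CG11779 was counted at the start of nos. Other protein-coding genes numbered 12 in the maternal windows and 6 in the gap windows. Their part in these counts was not tested, and the same share over all genes was not computed here.

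The replicates were compared at every pooled region. The IDR peaks were the 2426 strongest regions of the list pooled from these same replicates. A match in both is favoured by that choice, so it is not separate support for the 5 IDR peaks. Their replicate summits lay at most 83 bp away. Of the other regions many had a match in 1 replicate only. In maternal windows 21 of 50 regions (42.0%) were matched in both lists and in gap windows 7 of 30 (23.3%), beside 43.6% of all 30000 pooled regions. The gap regions also had lower signals, as given above, and the part of signal in their share was not tested. Among the 2426 strongest regions of replicate 1 alone, 4 of the 9 genes had one in the window (43.1% of all genes), the added gene being Kr. In replicate 3 alone the count was 3 of 9 (43.0% of all genes), the 3 maternal genes.

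**Figure D2:**
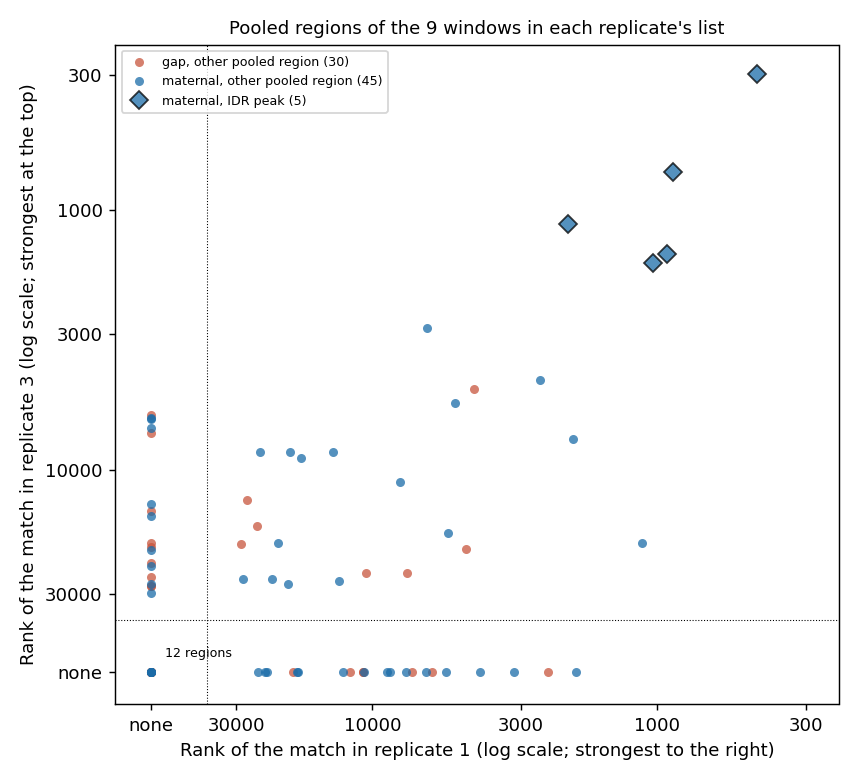
Rank of the nearest summit within 200 bp in replicate 1 (x axis) and replicate 3 (y axis), both on log scales with the strongest at the upper right, for the 80 pooled regions of the 9 windows; regions with no match are placed at "none", blue is maternal, red is gap, and diamonds are IDR peaks. The 5 IDR peaks rank between 298 and 2050 in both replicates, and no other region is among the 2426 strongest of both.

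Region density gave the same order of the groups. The number of pooled summits per kb of window was 0.74 at nos, 0.63 at bcd and 0.56 at cad, and from 0.091 at gt to 0.37 at hb among the gap genes, so the groups did not overlap in the pooled list. The median over all protein-coding genes was 0.30. In replicate 1 the maternal genes had 0.46 to 0.65 per kb and the gap genes 0.046 to 0.36. In replicate 3 the groups did overlap, since hb at 0.41 exceeded cad at 0.34. The lowest was gt in each of the 3 lists. Below the all-gene median of the same list lay 5 of the 6 gap genes in the pooled list, 3 in replicate 1 and 4 in replicate 3, and none of the maternal genes in any of them.

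Gene density differs in the same direction as region density. The maternal windows contained 3 other protein-coding genes each at bcd and cad and 6 at nos, while those of the gap genes contained 0 at kni and tll, 1 at hb, Kr and gt and 3 at hkb. Over all genes, the share with an IDR peak in the window was 20.1% where 0 or 1 other gene was present, 31.7% with 2 or 3 and 43.6% with 4 to 6. Within these ranges of neighbour number, the median density was 0.095, 0.22 and 0.31 summits per kb in the same order. All members but kni and tll stand at the upper end of their range. Set against those medians, 8 of the 9 members lay above, the exception being gt at 0.0915 against 0.0946. Of genes in the same range, 15.0% were as dense as hb, 27.8% as dense as Kr and 37.1% as dense as tll. For kni the share was 45.9%, for hkb 48.6% and for gt 52.9%. For the maternal genes the shares were 1.59% for nos, 4.0% for bcd and 7.51% for cad. Neighbouring genes share windows, so these shares are descriptions over genes that are not independent, and the part of gene density in the difference between maternal and gap genes was not tested.

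**Figure D3:**
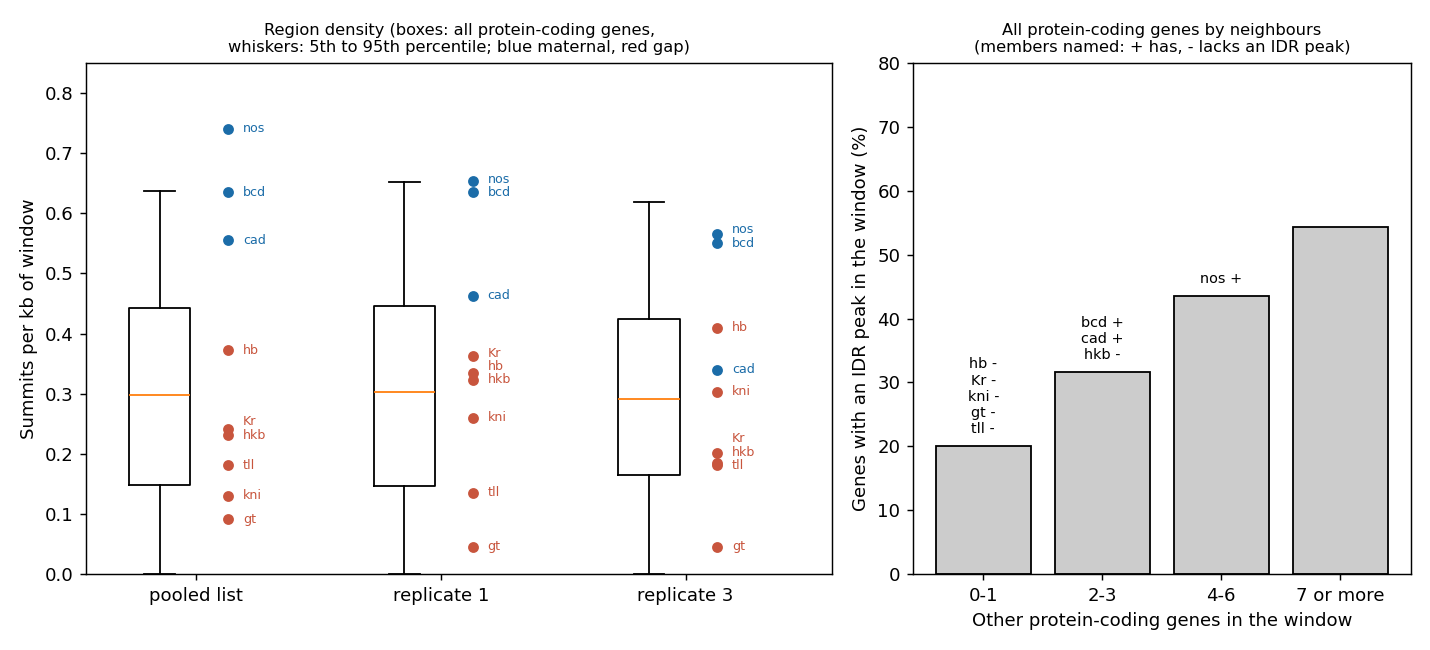
Left, summits per kb of window in the pooled and replicate lists, with boxes (median, quartiles, and whiskers from the 5th to the 95th percentile) over all 13945 protein-coding genes and dots for the maternal (blue) and gap (red) genes. Right, percentage of all protein-coding genes with an IDR peak in the window, by the number of other protein-coding genes there, with the 9 genes named above their bar and marked + or -; 5 of the 6 gap genes fall in the first bar, at 20.1%, and lack a peak.

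Distance to the nearest IDR peak is not separate from the window count. A gap gene without an IDR peak in its window must lie more than 10 kb from one. From the edge of the gene body the nearest IDR summit was 0 bp from cad, 187 bp from bcd and 2178 bp from nos. For the gap genes it was 14121 bp at hb, 16226 bp at kni, 34833 bp at tll, 39835 bp at gt, 48677 bp at hkb and 59211 bp at Kr, against a median of 13136 bp over all genes. All 6 were thus farther than the median gene, but hb and kni only slightly, with 51.6% and 55.0% of genes at least as near. For Kr the share was 85.6%. These shares are over all genes, not over genes in the same range of neighbour number. The nearest peak was at the promoter of another gene for hb (CG11755, signal 81.7), Kr (CG34038, signal 107) and tll (cindr, which encodes a cytoskeletal adaptor, signal 127).

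The 31 further genes were listed as related to embryonic patterning, and the list is not limited to the anterior-posterior axis. Of these, 18 had an IDR peak in the window (58.1%, beside 43.5% of all genes). A peak lay within 500 bp of a start of 6, beside 10.2% of all genes. By class these 18 were 6 of 12 further maternal and terminal genes and 5 of 5 activators and repressors of the early embryo. The others were 5 of 6 head gap genes and 2 of 8 genes listed here as pair-rule, odd and Ten-m. The median window of these genes was 24.4 kb, but it was 191 kb for pum and 135 kb for Ten-m, where there is more room for peaks. The 6 with a peak at a start were gro, a co-repressor gene (rank 123, signal 294), Stat92E, the transcription factor of the JAK/STAT pathway (rank 390, signal 182), cic, a repressor relieved by Torso signalling (rank 870, signal 124), Trl, which encodes the GAGA factor (rank 893, signal 122), cnc (rank 1543, signal 91.4) and Ten-m (rank 1895, signal 81.8). None of the 12 further maternal and terminal genes was among them. Together with the 3 maternal members they had 1 gene with such a peak, bcd, which is near the 10.2% of all genes.

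Peaks were in the windows of 5 of the 6 head gap genes and of 0 of the 6 gap genes. The difference was not tested. Both groups had a median of 1 other gene in the window, but the windows of oc (40.5 kb) and cnc (61.1 kb, with 4 other genes) were larger than any gap window, the largest of which was 26.8 kb. In the head gap group slp1 and slp2 have the same 2 peaks in their windows and are counted separately. The stronger lies between them at chr2L:3832380-3832640 (signal 334, rank 85), which ranked 65 in replicate 1 and 98 in replicate 3. For oc, an anterior homeobox gene, the best peak was 6078 bp upstream of its start (signal 118, rank 964) and nearest to oc itself. The best peak of btd was nearest to the start of nej, and that of cnc, which also had one at its own start, to that of Irk1. The best peak of any related gene was in the Trl window (chr3L:14759329-14759699, signal 424, rank 46).

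**Figure D4:**
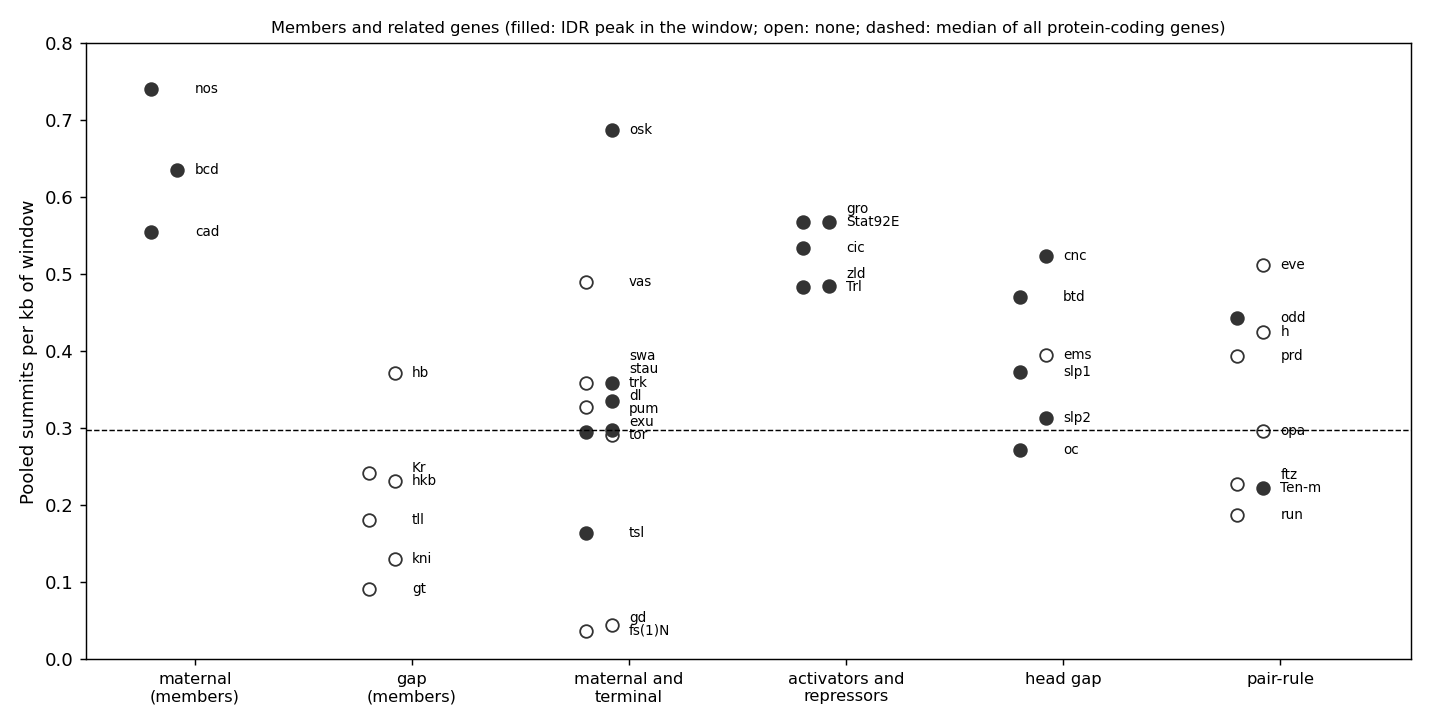
Pooled summits per kb of window for the 3 maternal and 6 gap genes and for 31 related genes by class, with filled circles for genes that have an IDR peak in the window, open circles for those without, and a dashed line at 0.30, the median of all protein-coding genes. All gap genes are open, and 5 of 6 lie below the line in this list (3 of 6 in replicate 1 and 4 of 6 in replicate 3 against their own medians); 5 of 6 head gap genes and 5 of 5 activators and repressors are filled, the latter with a median window of 37.0 kb and 6 other genes.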

How the data were processed

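Chromatin immunoprecipitation and sequencing of CG12236-eGFP embryos gave 2 replicates in 1 group, with fragments of 200 to 800 bp per the labels. The authors deposited narrowPeak lists. Signal (column 7) and −log10 q values (column 9) were computed by the authors for each replicate and for both pooled, from the alignments and, per the deposited notes, 1 further shared file that the control-normalised tracks also use. For the scale of the signal, the aligner, the peak caller and the IDR threshold: not given in the sources used here. Depth is unknown, so no interval or floor is given. The highest −log10 q, 3.82, was shared by all IDR peaks, so regions were ranked by signal.

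Lists on dm6 were used with Ensembl release 115 (BDGP6.54), whose coordinates for all 9 genes equal those of RefSeq Release 6, and all regions lay within the RefSeq arm lengths. Lists on dm3 were not analysed here. nos and h were matched to nanos and hry. A promoter is 500 bp either side of a protein-coding start, and replicate summits were matched within 200 bp. Sequence windows touching an annotated untranslated region, or on arm 2R, are not printed. With 1 group, no test was run, and counts stand beside those over all genes. Counting was tested on simulated data. The members and lists were chosen with earlier results of these data known. Named genes are the 9 members, the nearest starts to IDR or 5000 strongest pooled summits, and related genes with a peak at a start or the best ranks; zen, CG11779 and CG9380, the genes beside the nearest IDR peaks of gap genes, and other related genes were named after values were seen. Alternatives were other flanks, region overlap, a stricter list, each replicate alone, other start windows and match distances, and other places for hb and cad. Python 3.11.15, numpy 2.4.6, pandas 2.3.3 and matplotlib 3.10.9 were used.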

Additional observations from a re-analysis of the deposited data

How the results depend on the processing

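The match of IDR peaks to the replicates, which their selection favours, is left aside here. Of 35 other alternatives, 27 left the count or value about where it was and 8 did not. This tally is not a measure of stability, since several of the 27 could not have moved. With 0 gap genes in the main count, a smaller flank, a stricter list or another place for hb or cad must also give 0. Small changes, such as from 3 to 4 members, were counted as about unchanged. With a flank of 20 kb, 5 members and 2 gap genes, hb and kni, had an IDR peak in the window in place of 3 and 0, while the share of all genes rose from 43.5% to 60.3%. Leaving out each replicate gave 3 to 4 members. Replicate 1 alone gave 1 gap gene, Kr, with a strongest region in the window and 2 members, bcd and Kr, with one at a start, so that over the replicates left out singly these counts ranged from 0 to 1 and from 1 to 2. The median density over the members was 0.242 summits per kb, but 0.271 with a flank of 5 kb, 0.335 with a flank of 20 kb, and between 0.304 and 0.335 in the replicate lists, further from the main value than the SD of 0.0223 between replicates. Against the all-gene median the direction turned: the members lay below it in the pooled list (0.298) and with a flank of 5 kb (0.301), and above it with a flank of 20 kb (0.298), in replicate 1 (0.335 against 0.304) and in replicate 3 (0.304 against 0.291). The cause of these shifts was not tested. The maternal count stayed at 3 of 3 with a flank of 5 kb, with the stricter list and with each replicate alone. A flank of 20 kb (3 of 3), hb added (3 of 4) and cad left out (2 of 2) could only repeat the main count. No paired analysis was possible because there is 1 group. With unknown depth, a gene without a peak cannot be called unbound.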

Other observations

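Over the 151-base windows of all pooled regions near the 9 genes, TAATCC, the Bicoid motif, was in 0 of 50 at maternal genes and 3 of 30 at gap genes, beside 4.33% of all pooled regions. CAGGTA was in 4 of 50 and 1 of 30, beside 3.28%. TTTATG was in 9 of 50 and 8 of 30, beside 14.8%, and TTTTTT in 11 of 50 and 7 of 30, beside 26.0%. GAGAG was in 9 of 50 and 6 of 30, beside 18.6%, and TATCGATA in none of either, beside 1.39%. A match says only that the letters are in the window, and the groups were not tested against each other.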
